A study of Mus musculus with 12 samples.

Results

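The 10 genes described here encode proteins that transcribe and copy mitochondrial DNA, the methyltransferase TFB1M, and nuclear transcription factors that act on promoters of such genes. They were chosen by name and function: Tfam, Tfb2m and Polrmt for transcription, and Tfb1m as the relative of Tfb2m. Polg, Polg2 and Ssbp1 were chosen for replication, and Nrf1, Gabpa and Gabpb1 as regulators. All 10 were among the 24452 genes of the expression table and among the 12249 that passed the filter on low values. RNA was sequenced from brown adipose tissue, the heat-producing fat depot, of male C57BL/6J Bom mice aged 12 weeks and housed at 30 °C. ERRαγAd-/- mice (ERRKO), per the labels, carried floxed alleles of the orphan nuclear receptors ERRα and ERRγ that Cre deletes where the adiponectin promoter is active, and WT mice were littermates with the same floxed alleles and no Cre. Mice of each genotype were injected daily for 10 days with PBS or with 1 mg/kg of CL316,243, which activates the β3-adrenergic receptor, and were killed 24 h after the last injection. The 4 groups, with 3 libraries each, are called ERRKO_CL, ERRKO_PBS, WT_CL and WT_PBS. No label states whether the 3 libraries of a group came from different animals, so p-values here cover only the variation among these libraries, which may be technical.

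Mitochondrial DNA is transcribed by the RNA polymerase POLRMT, which is placed on the promoter by TFAM and opens the strands with TFB2M. TFAM also packs the genome into nucleoids, and TFB1M, a relative of TFB2M, methylates the RNA of the small mitochondrial ribosomal subunit. The genome is copied by DNA polymerase γ, made of the catalytic POLG and the accessory POLG2, while SSBP1 coats the exposed strand. All of these proteins are encoded in the nucleus. NRF1, and GABP, which joins the DNA-binding GABPA with the activating GABPB1, are known to bind the promoters of many such genes, and ERRα and ERRγ act with PGC-1 coactivators on genes of oxidative metabolism. Brown fat is rich in mitochondria, and adrenergic stimulation is known to raise their number.

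RefSeq promoter windows, from 250 bases before to 50 bases after an annotated start on GRCm38.p6, were found for all 10 genes (12 windows, since Nrf1 and Gabpb1 have 2 each). The windows of Tfb2m, Tfam, Polrmt and Gabpa are shown because these 4 genes differed most between the groups, and that of Tfb1m because it is the relative of Tfb2m that did not pass the test in any comparison on the main scale. They are written 5′ to 3′ on the strand of the gene, with capitals for matches on either strand to the motifs listed after them. The windows are Tfb2m chr1:179546227-179546526, minus strand, Tfam chr10:71237995-71238294, minus strand, Polrmt chr10:79746532-79746831, minus strand, Gabpa chr16:84834874-84835173, plus strand, and Tfb1m chr17:3557706-3558005, minus strand.
Tfb2m: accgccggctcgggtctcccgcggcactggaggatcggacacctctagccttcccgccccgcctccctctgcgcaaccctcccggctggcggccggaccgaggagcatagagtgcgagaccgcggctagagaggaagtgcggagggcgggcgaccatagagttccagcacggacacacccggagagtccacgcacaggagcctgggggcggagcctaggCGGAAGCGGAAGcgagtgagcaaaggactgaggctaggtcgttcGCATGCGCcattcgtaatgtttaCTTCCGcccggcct
Tfam: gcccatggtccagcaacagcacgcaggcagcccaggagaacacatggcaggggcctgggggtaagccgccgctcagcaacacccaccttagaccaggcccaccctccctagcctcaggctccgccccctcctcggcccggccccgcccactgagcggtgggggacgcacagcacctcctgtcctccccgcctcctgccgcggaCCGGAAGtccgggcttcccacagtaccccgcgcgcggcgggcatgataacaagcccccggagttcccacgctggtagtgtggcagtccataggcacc
Polrmt: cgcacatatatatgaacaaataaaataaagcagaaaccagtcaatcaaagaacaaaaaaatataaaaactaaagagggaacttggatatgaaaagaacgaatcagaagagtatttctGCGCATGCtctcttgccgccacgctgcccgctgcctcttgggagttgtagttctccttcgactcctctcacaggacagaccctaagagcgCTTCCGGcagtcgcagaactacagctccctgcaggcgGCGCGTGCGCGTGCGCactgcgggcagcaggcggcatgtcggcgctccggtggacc
Gabpa: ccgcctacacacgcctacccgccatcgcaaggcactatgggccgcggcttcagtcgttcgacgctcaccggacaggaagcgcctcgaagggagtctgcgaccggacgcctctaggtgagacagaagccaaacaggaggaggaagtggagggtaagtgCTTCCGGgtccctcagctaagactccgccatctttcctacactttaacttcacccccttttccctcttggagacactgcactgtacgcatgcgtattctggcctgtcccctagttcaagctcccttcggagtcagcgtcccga
Tfb1m: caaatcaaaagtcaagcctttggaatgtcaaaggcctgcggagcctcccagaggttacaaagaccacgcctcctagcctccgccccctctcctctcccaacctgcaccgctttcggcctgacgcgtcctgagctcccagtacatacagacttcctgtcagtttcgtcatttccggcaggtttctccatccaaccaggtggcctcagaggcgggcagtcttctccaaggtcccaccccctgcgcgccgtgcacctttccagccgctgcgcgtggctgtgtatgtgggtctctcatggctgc

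The ETS motif CCGGAAG, the type of site that GABP binds, was present in 6 of the 12 windows and in 8.86% of all 32851 windows. The 6 were those of Tfam, Polrmt, Polg, Polg2, Ssbp1 and Gabpa. In Tfam its first base lay at position -47, counted from 0 at the annotated start. Its shorter core CGGAAG, contained in the longer form, was also present in Tfb2m, at positions -31, -25 and 36, and in 16.9% of all windows. The NRF1 motif in its 10-letter form matched in Polrmt and Gabpb1 and in 4.6% of all windows. A shorter NRF1 form, GCATGCGC, matched in Tfb2m at position 13 and in Polrmt, and in 2.71% of all windows. The motif AAGGTCA, bound by ERR proteins, was in 0 of the 10 genes' windows and in 4.72% of all windows. These matches describe letters, not binding. The window of Tfb1m, both windows of Nrf1 and the second window of Gabpb1 held none of the 5 patterns.

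Libraries held from 12468001 to 12954186 in ERRKO_CL, 12822176 to 13263567 in ERRKO_PBS, 8979123 to 9559239 in WT_CL and 8478310 to 9727167 recovered reads in WT_PBS. On the deposited RPKM scale (reads scaled to gene length and library total) the typical gene was 0.63 (log2) higher in ERRKO_CL than in WT_CL, 0.53 higher in ERRKO_PBS than in WT_PBS and 0.26 lower in WT_CL than in WT_PBS (log2 -0.26). Levels below are therefore scaled RPKM, with libraries brought to a common scale by the median of ratios. For each of the 10 genes, every direction that turns on the deposited scale is given with its deposited value. Esrra, the gene of ERRα, was at 7.93 ± 1.08 in ERRKO_CL, 7.63 ± 2.05 in ERRKO_PBS, 79.3 ± 3.82 in WT_CL and 43.7 ± 2.86 in WT_PBS (mean ± SD, n = 3). Esrrg, the gene of ERRγ, was at 7.03 ± 0.951, 3.54 ± 1.21, 6.92 ± 1.26 and 6.89 ± 2.15 in the same order, so its level did not separate ERRKO_CL from WT_CL. Its difference was 0.03 ± 0.25 under CL316,243 (log2 ± SE, adjusted p = 0.944; deposited 0.69, adjusted p = 0.034) and -0.87 ± 0.25 under PBS (adjusted p = 0.019; deposited -0.34, adjusted p = 0.274). The Esrrg values thus do not show a loss of ERRγ transcript under CL316,243, and ERRKO names the groups as labelled. The summed level of 6 brown adipocyte markers was 1186 to 1509 in ERRKO_CL, 382 to 683 in ERRKO_PBS, 7115 to 9143 in WT_CL and 2866 to 4889 in WT_PBS. Of these markers 5 were lower in ERRKO_CL and 4 in ERRKO_PBS than in WT, and 0 were higher, while as deposited 1 was higher in each. Ppargc1a had a higher mean in ERRKO under each treatment (10.0 against 8.06 with CL316,243, 6.98 against 4.90 with PBS). The part of the marker difference in the values of the 10 genes was not tested. The summed level of 12 skeletal muscle markers, all detected in each group, was 220 to 1776 in ERRKO_CL, 112 to 3385 in ERRKO_PBS, 2.32 to 402 in WT_CL and 3.11 to 315 in WT_PBS, and was highest in replicate 3 of both ERRKO groups. Without those 2 libraries, the ERRKO_CL difference from WT_CL was -1.93 for Tfb2m, -1.22 for Tfam, -1.40 for Gabpa and -0.95 for Polrmt (log2). The remaining ERRKO_CL libraries still had muscle sums of 220 and 800, against 83.4, 2.32 and 402 in WT_CL. The part of muscle transcripts in the values of the 10 genes was not tested. Other cell types' markers also moved. Of 6 general adipocyte markers 4 were higher in ERRKO_CL than in WT_CL (median 0.63; deposited 1.34) and 3 in ERRKO_PBS than in WT_PBS (0.48; deposited 1.08), with sums of 18836 to 19163, 11214 to 15173, 15976 to 16981 and 10134 to 15102 in ERRKO_CL, ERRKO_PBS, WT_CL and WT_PBS. Of 5 fibroblast markers 4 were higher in ERRKO_CL than in WT_CL (median 0.71; deposited 1.33), with sums of 373 to 517 in ERRKO_CL, against 229 to 262 in WT_CL. Of 5 macrophage markers 4 were lower in WT_CL than in WT_PBS (median -1.16; deposited -1.44), with sums of 96.3 to 125 in WT_CL, against 169 to 365 in WT_PBS. Of 5 endothelial markers 1 was lower in ERRKO_CL and 2 in ERRKO_PBS than in WT, where 21.6% and 18.4% of all genes were. As deposited 0 were lower in either, and 3 were higher in ERRKO_CL, where 70.5% of all genes were. Of the 3 T cell markers tested 2 were higher in ERRKO_PBS than in WT_PBS. On the median-ratio scale 19.8% of all genes were higher in ERRKO_CL than in WT_CL and 15.8% in ERRKO_PBS than in WT_PBS. With CL316,243 in WT 12.6% of all genes were lower. The part of these marker differences in the values of the 10 genes was not tested. In bulk tissue, fewer cells of a type and less RNA per cell cannot be told apart.

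On the median-ratio scale, transcripts of the initiation machinery (Tfb2m, Tfam and Polrmt) and of Gabpa were lower in ERRKO than in WT brown fat. Tfb1m, Polg2, Nrf1 and Gabpb1 did not pass the test on that scale. As deposited, Tfb2m, Tfam, Polrmt and Gabpa were called lower under CL316,243, but under PBS only Tfb2m was. Under CL316,243, 6 of the 10 genes were lower in ERRKO_CL than in WT_CL and 0 were higher, where 21.6% of all tested genes were lower and 19.8% higher, at an adjusted p of 0.05. Their median difference was -0.40 (log2), against 0.01 over all genes. Under PBS, 5 were lower in ERRKO_PBS than in WT_PBS and 0 were higher, with 18.4% of all genes lower and 15.8% higher, and the median was -0.23 against 0.01. In WT tissue 6 were higher in WT_CL than in WT_PBS and 0 were lower, with 17.9% of all genes higher and 12.6% lower, and the median was 0.34 against 0.01. In ERRKO tissue, Tfb2m alone of the 10 was called higher in ERRKO_CL than in ERRKO_PBS, with 6.68% of all genes higher and 3.62% lower, and the median was 0.07 against 0.02. On the deposited scale the genotype counts were 5 higher and 4 lower under CL316,243, where 70.5% and 6.62% of all genes were, and 5 higher and 1 lower under PBS, where 66.3% and 6.22% were. On that scale 4 were higher and 1 lower with CL316,243 in WT, where 7.2% and 38.1% of all genes were, and 0 in either direction in ERRKO, where 3.23% and 13.7% were. The deposited medians of the 10 genes between genotypes were 0.29 under CL316,243 and 0.29 under PBS, against 0.63 and 0.53 over all genes. With CL316,243 they were 0.02 in WT and -0.11 in ERRKO, against -0.26 and -0.16 over all genes. At an unadjusted p under 0.05 limma gave the same counts on the median-ratio scale, apart from ERRKO_CL against ERRKO_PBS (2 higher, 0 lower), and on the deposited scale it gave 1 higher and 1 lower in that comparison. The share of all genes at the unadjusted threshold was not counted. At the adjusted threshold edgeR on the recovered reads called the same numbers as limma on the median-ratio scale, except 5 higher in WT_CL than in WT_PBS.

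**Figure D1:**
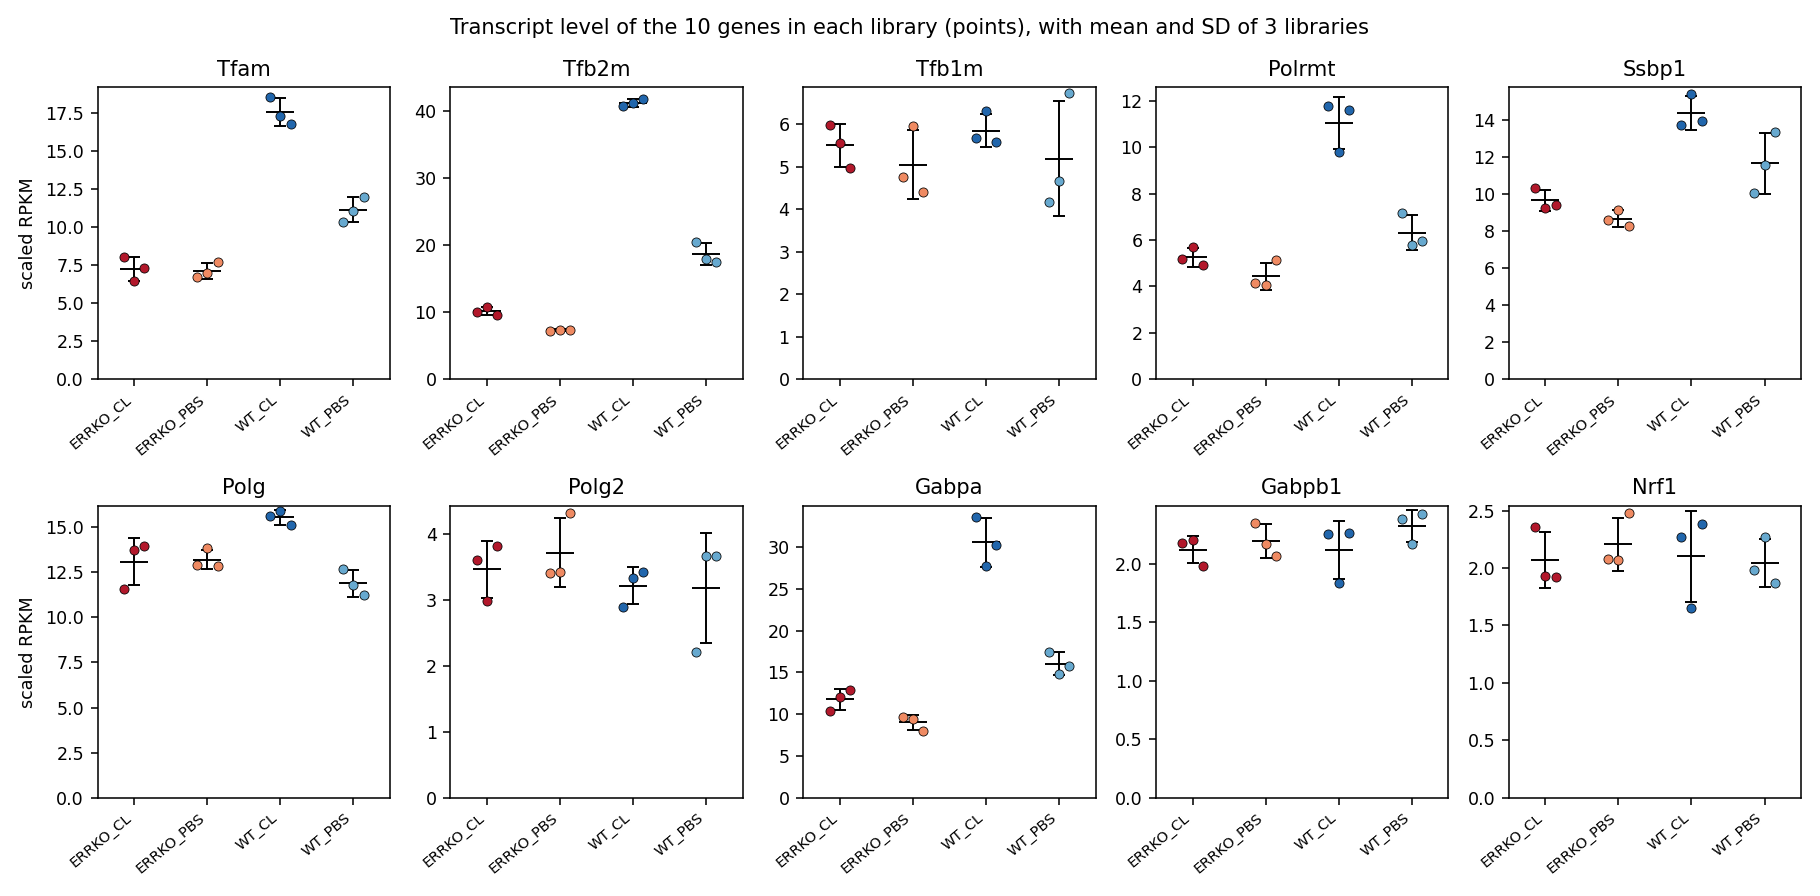
Level of each of the 10 genes in every library, as scaled RPKM, with the groups in the order ERRKO_CL, ERRKO_PBS, WT_CL, WT_PBS; points are libraries and the bars their mean and SD (n = 3). Tfb2m ranged from 40.7 to 41.8 in WT_CL and stayed under 11 in every ERRKO library, while Nrf1, Gabpb1 and Polg2 overlapped in all groups.

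Tfb2m (GENCODE M21 on GRCm38, chromosome 1, 179528055 to 179546267, minus strand) had the largest difference of the 10 in each of the 5 comparisons on the median-ratio scale. Its level was 10.0, 10.7 and 9.59 in ERRKO_CL, against 40.7, 41.2 and 41.8 in WT_CL. Under PBS it was 7.11, 7.38 and 7.38 in ERRKO_PBS, against 20.5, 17.9 and 17.4 in WT_PBS. No ERRKO library reached the lowest WT library, and the WT_CL libraries lay above every other. Tfb2m was 4.08-fold lower in ERRKO_CL than in WT_CL (log2 -1.98 ± 0.08 SE, adjusted p = 6.6e-09), and -1.28 on the deposited scale. It was 2.55-fold lower in ERRKO_PBS than in WT_PBS, and also lower on the deposited scale, with a log2 of -0.73 (adjusted p = 2.4e-05). CL316,243 raised Tfb2m 2.21-fold in WT_CL over WT_PBS (log2 1.13 ± 0.08, adjusted p = 3.5e-06; deposited 0.81). In ERRKO tissue it rose 1.39-fold (0.44 ± 0.08, adjusted p = 0.0058), but on the deposited scale the change was 0.26 with an adjusted p of 0.065. These values rest on 372 to 1223 reads per library.

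Tfb1m (chromosome 17, 3519256 to 3557781, minus strand), the ribosomal RNA methyltransferase, averaged 5.51 ± 0.512 in ERRKO_CL, 5.05 ± 0.817 in ERRKO_PBS, 5.85 ± 0.395 in WT_CL and 5.19 ± 1.35 in WT_PBS. The groups overlapped, and its difference was -0.08 ± 0.16 for ERRKO_CL against WT_CL (adjusted p = 0.710) and -0.02 ± 0.16 for ERRKO_PBS against WT_PBS (adjusted p = 0.930). On the deposited scale these differences were 0.57 and 0.52, near the shift of the typical gene. Its 83 to 164 reads per library leave a wider error than for Tfb2m. Without WT_PBS replicate 3 the difference between WT_CL and WT_PBS was 0.37 with an adjusted p of 0.0496, against 0.18 ± 0.16 with all libraries (adjusted p = 0.411).

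The ratio of Tfb2m to Tfb1m within a library does not depend on how libraries are scaled. It was 1.67, 1.93 and 1.93 in ERRKO_CL, against 7.17, 6.53 and 7.51 in WT_CL. Under PBS it was 1.49, 1.24 and 1.67 in ERRKO_PBS, against 4.90, 3.85 and 2.59 in WT_PBS. Every WT ratio exceeded every ERRKO ratio, and the WT_CL ratios exceeded all WT_PBS ratios.

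Tfam (chromosome 10, 71225464 to 71238280, minus strand), which packs mitochondrial DNA and starts its transcription, was at 8.01, 6.42 and 7.27 in ERRKO_CL, against 18.6, 17.3 and 16.7 in WT_CL. Under PBS it was at 6.68, 6.95 and 7.66 in ERRKO_PBS, against 10.3, 11.1 and 11.9 in WT_PBS. On this scale the ERRKO and WT libraries did not overlap in either treatment, and the ERRKO_CL libraries spanned the range of ERRKO_PBS. As deposited, ERRKO_PBS (9.06 to 10.4) overlapped WT_PBS (9.51 to 10.1). Tfam was 2.42-fold lower in ERRKO_CL than in WT_CL (log2 -1.22 ± 0.10, adjusted p = 1.1e-06), and -0.54 on the deposited scale (adjusted p = 3.6e-04). Under PBS it was 1.56-fold lower in ERRKO_PBS (-0.61 ± 0.10, adjusted p = 4.3e-04), but the deposited value was -0.05 (adjusted p = 0.654). In WT tissue Tfam rose 1.58-fold with CL316,243 (0.64 ± 0.10, adjusted p = 5.8e-04; deposited 0.32, adjusted p = 0.021). In ERRKO tissue the difference was 0.02 ± 0.10 (adjusted p = 0.919), and -0.17 on the deposited scale.

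Polrmt (chromosome 10, 79736123 to 79746581, minus strand), the mitochondrial RNA polymerase, was at 5.17, 5.69 and 4.90 in ERRKO_CL, against 11.8, 9.78 and 11.6 in WT_CL. It was at 4.14, 4.05 and 5.12 in ERRKO_PBS, against 7.18, 5.80 and 5.97 in WT_PBS. On this scale the WT_CL libraries were the highest and no ERRKO library reached a WT library of the same treatment. As deposited, ERRKO_PBS (5.28 to 6.95) overlapped WT_PBS (5.06 to 6.62). Polrmt was 2.11-fold lower in ERRKO_CL than in WT_CL (-1.01 ± 0.12, adjusted p = 2.9e-05; deposited -0.33, adjusted p = 0.031). Under PBS it was -0.47 ± 0.12 (adjusted p = 0.0092), with a deposited value of 0.08 (adjusted p = 0.598). It rose 1.75-fold with CL316,243 in WT (0.76 ± 0.12, adjusted p = 6.2e-04; deposited 0.45, adjusted p = 0.013), and in ERRKO the difference was 0.23 ± 0.12 (adjusted p = 0.264).

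**Figure D2:**
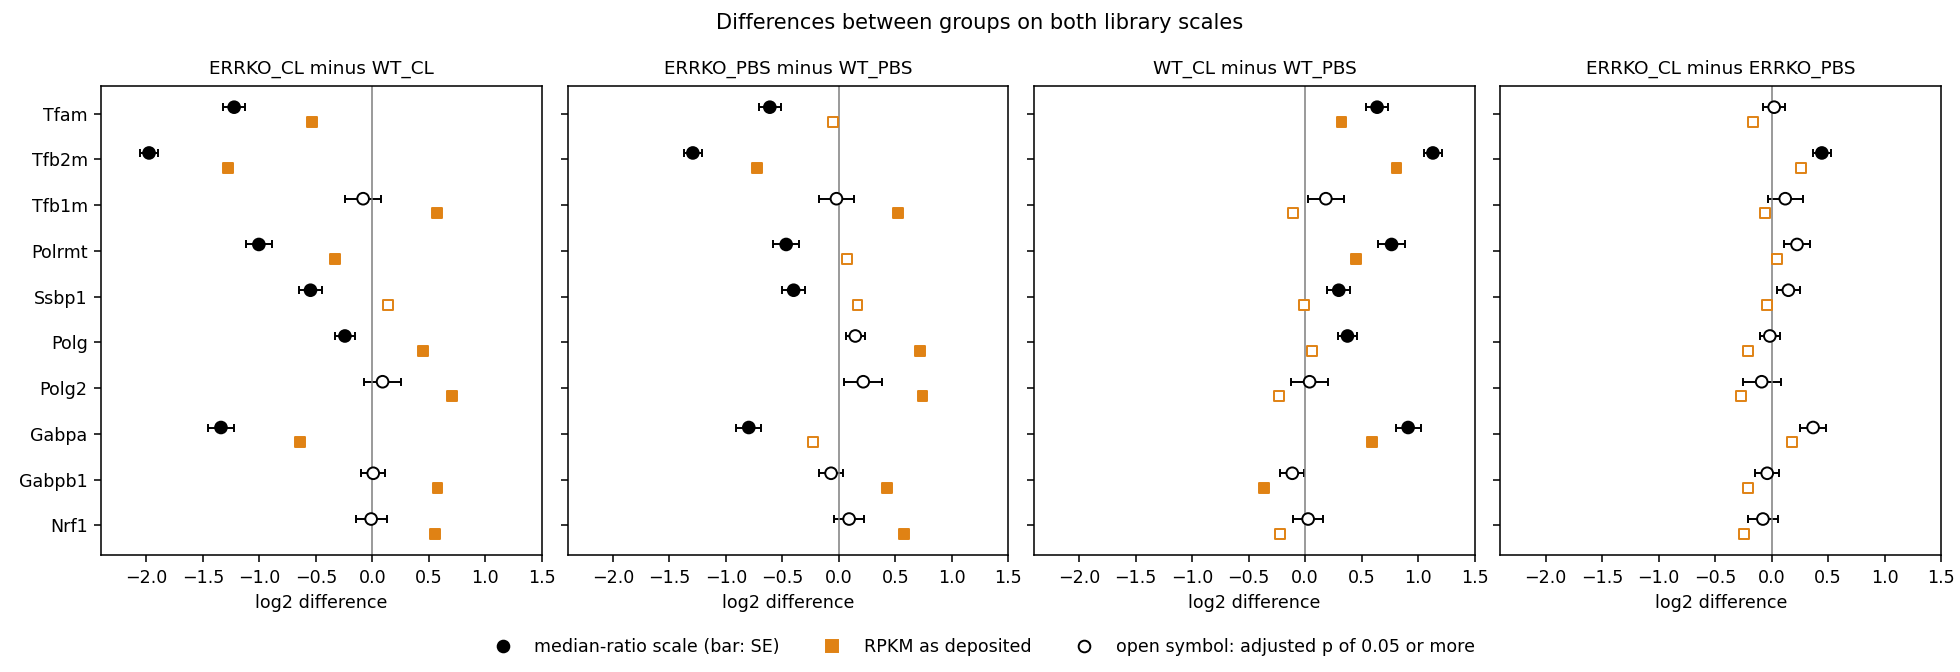
Log2 differences of the 10 genes in the 4 comparisons of groups, on the median-ratio scale (circles, with SE) and as deposited (squares); open symbols did not pass the test. Tfb2m lies at -1.98 for ERRKO_CL against WT_CL and at -1.28 as deposited, while Tfb1m lies at -0.08 and at 0.57.

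The replication genes differed less. Polg (chromosome 7, 79446231 to 79466362, minus strand), the catalytic subunit of the DNA polymerase, was at 11.6, 13.7 and 13.9 in ERRKO_CL, against 15.7, 15.9 and 15.1 in WT_CL. It was at 12.9, 13.8 and 12.9 in ERRKO_PBS, against 12.7, 11.8 and 11.2 in WT_PBS. On this scale the ERRKO libraries were all lower than WT under CL316,243 and all higher under PBS. As deposited they were all higher under each treatment, at 13.8 to 16.3 against 10.7 to 11.4 under CL316,243. The difference was -0.24 ± 0.09 under CL316,243 (adjusted p = 0.040; deposited 0.45) and 0.15 ± 0.09 under PBS (adjusted p = 0.216; deposited 0.72). The call under CL316,243 was lost without ERRKO_CL replicate 1 (-0.16, adjusted p = 0.155), without WT_CL replicate 1, 2 or 3 (adjusted p = 0.0874, 0.0984 and 0.0659) and without ERRKO_PBS replicate 1 or 3 (adjusted p = 0.0549 and 0.0539). Polg rose in WT with CL316,243 (0.37 ± 0.09, adjusted p = 0.0069), but its deposited value there was 0.06 (adjusted p = 0.608). Of its exon bases 8.57% overlap Fanci on the other strand, which was low in all groups.

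Polg2 (chromosome 11, 106768253 to 106779537, minus strand), the accessory subunit, averaged 3.46 ± 0.433 in ERRKO_CL, 3.72 ± 0.526 in ERRKO_PBS, 3.22 ± 0.284 in WT_CL and 3.18 ± 0.836 in WT_PBS. The groups overlapped, on 52 to 154 reads per library, and its largest difference was 0.22 ± 0.17, between ERRKO_PBS and WT_PBS (adjusted p = 0.342; deposited 0.74). Within libraries the ratio of Polg to Polg2 averaged 3.83 ± 0.710 in ERRKO_CL, 3.61 ± 0.560 in ERRKO_PBS, 4.86 ± 0.507 in WT_CL and 4.00 ± 1.5 in WT_PBS.

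Ssbp1 (chromosome 6, 40471352 to 40484700, plus strand), the single-stranded DNA-binding protein, was at 10.3, 9.24 and 9.39 in ERRKO_CL, against 13.7, 15.4 and 13.9 in WT_CL. It was at 8.55, 9.13 and 8.26 in ERRKO_PBS, against 10.0, 11.6 and 13.3 in WT_PBS. On this scale the ERRKO libraries were all lower than the WT libraries of the same treatment, while as deposited they overlapped under each treatment. Ssbp1 was lower in ERRKO_CL by -0.55 ± 0.10 (adjusted p = 0.0010) and in ERRKO_PBS by -0.40 ± 0.10 (adjusted p = 0.0096), but the deposited values were 0.14 and 0.17, neither of which passed the test (adjusted p = 0.187 and 0.127). Without replicate 3 of both ERRKO groups, the libraries with most muscle transcripts, the PBS difference was -0.37 with an adjusted p of 0.0501. The difference with CL316,243 in WT was 0.30 ± 0.10 (adjusted p = 0.045; deposited -0.01). That call was lost under edgeR (adjusted p = 0.054) and when any library other than WT_PBS replicate 3 was left out, with a log2 of 0.20 and an adjusted p of 0.167 without WT_PBS replicate 1.

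Among the regulators, Gabpa changed on the median-ratio scale, while Nrf1 and Gabpb1 did not pass the test there. Gabpa (chromosome 16, 84834925 to 84863779, plus strand), the DNA-binding subunit of GABP, was at 10.4, 12.0 and 12.9 in ERRKO_CL, against 33.6, 27.8 and 30.2 in WT_CL. It was at 9.69, 9.37 and 7.96 in ERRKO_PBS, against 17.5, 14.7 and 15.8 in WT_PBS. On this scale the 4 groups did not overlap. As deposited, ERRKO_CL (12.4 to 15.1) overlapped both ERRKO_PBS (10.8 to 13.3) and WT_PBS (13.4 to 16.1). Gabpa was 2.60-fold lower in ERRKO_CL than in WT_CL (log2 -1.34 ± 0.11, adjusted p = 1.6e-06; deposited -0.64, adjusted p = 2.6e-04). Under PBS it was 1.78-fold lower in ERRKO_PBS (-0.80 ± 0.11, adjusted p = 1.6e-04), with a deposited value of -0.23 (adjusted p = 0.085). It rose 1.91-fold with CL316,243 in WT (0.91 ± 0.11, adjusted p = 1.4e-04; deposited 0.59, adjusted p = 0.0016). In ERRKO its difference of 0.37 ± 0.11 did not pass (adjusted p = 0.058; deposited 0.18), although without ERRKO_CL replicate 1 it was 0.45 with an adjusted p of 0.0481. Of its exon bases 6.98% overlap Atp5j, an ATP synthase gene on the other strand, and whether counting used strand is not given in the sources used here. Atp5j averaged 104 ± 4.20 in ERRKO_CL, 117 ± 10.2 in ERRKO_PBS, 169 ± 8.0 in WT_CL and 170 ± 20.6 in WT_PBS. On the median-ratio scale Atp5j did not move with CL316,243 in WT (0.00, adjusted p = 0.992), while as deposited it averaged 120 in WT_CL and 151 in WT_PBS. Atp5j was lower in ERRKO by -0.70 under CL316,243 and -0.53 under PBS (deposited 0.01 and 0.06), and its part in the Gabpa values was not tested.

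Gabpb1 (chromosome 2, 126627442 to 126676337, minus strand), the subunit that activates transcription, averaged 2.12 ± 0.119 in ERRKO_CL, 2.19 ± 0.144 in ERRKO_PBS, 2.11 ± 0.246 in WT_CL and 2.32 ± 0.138 in WT_PBS. Its differences ran from -0.11 to 0.01 in the 4 comparisons of groups, with adjusted p from 0.445 to 0.969. On the deposited scale it was higher in ERRKO, by 0.58 under CL316,243 and 0.42 under PBS, and lower with CL316,243 in WT (-0.36, adjusted p = 0.019), again near the shift of the typical gene. Nrf1 (chromosome 6, 30047988 to 30153458, plus strand) averaged 2.07 ± 0.247 in ERRKO_CL, 2.21 ± 0.232 in ERRKO_PBS, 2.10 ± 0.396 in WT_CL and 2.04 ± 0.210 in WT_PBS. Its differences ran from -0.08 to 0.09 (adjusted p from 0.639 to 0.959), with deposited values of 0.56 and 0.58 between genotypes. The ratio of Gabpa to Gabpb1 within a library was 4.77 to 6.50 in ERRKO_CL, against 13.4 to 15.2 in WT_CL, and 3.86 to 4.32 in ERRKO_PBS, against 6.51 to 7.34 in WT_PBS. The transcripts of Gabpa and Gabpb1 thus stood in unequal proportion across the groups, with no overlap between genotypes of the same treatment. Proteins were not measured. Gabpb2, listed with the partners of NRF1 and GABP, averaged 3.02 in ERRKO_CL, 2.98 in ERRKO_PBS, 3.67 in WT_CL and 2.90 in WT_PBS.

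**Figure D3:**
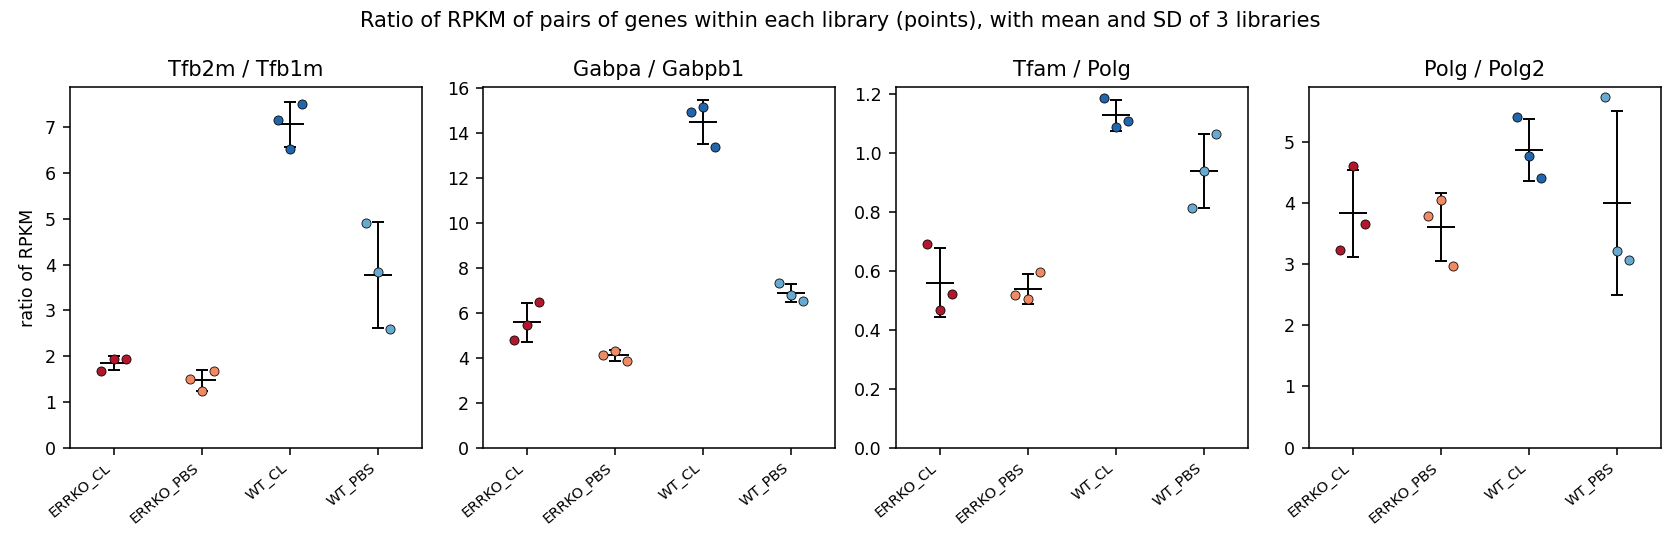
Ratios of paired genes within each library, which do not depend on library scaling, with points for libraries and the mean and SD of each group (n = 3). Tfb2m to Tfb1m lies between 6.53 and 7.51 in WT_CL and at or under 1.93 in ERRKO libraries, whereas Polg to Polg2 overlaps between genotypes under each treatment.

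The order of levels differed between genotypes. Tfb2m led the 10 genes in WT_CL with 41.2 ± 0.558 and in WT_PBS with 18.6 ± 1.66, followed by Gabpa with 30.5 ± 2.95 and 16 ± 1.37. In ERRKO_CL and ERRKO_PBS the highest mean was that of Polg, with 13.1 ± 1.30 and 13.2 ± 0.539. Its nearest neighbour there was Gabpa, with 11.8 ± 1.27 in ERRKO_CL and 9.01 ± 0.917 in ERRKO_PBS, and in ERRKO_CL these 2 overlapped. Nrf1 and Gabpb1, at about 2 in all groups, lay at the bottom of every order and did not differ beyond their spread. The ratio of Tfam to Polg within a library was 0.560 ± 0.116 in ERRKO_CL, 0.538 ± 0.0499 in ERRKO_PBS, 1.13 ± 0.0515 in WT_CL and 0.938 ± 0.127 in WT_PBS. Thus Tfam exceeded Polg in all WT_CL libraries and in no ERRKO library.

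Whether the response to CL316,243 differed between genotypes was tested by the interaction, the change in ERRKO less the change in WT. It called 2 of the 10 genes lower, Tfb2m and Tfam, and 0 higher, where 2.02% of all genes were lower and 1.88% higher, and the median of the 10 was -0.27 against -0.00 over all genes. On the deposited scale 1 was lower and 0 were higher, where 1.26% of all genes were lower and 3.88% higher. At an unadjusted p under 0.05 the interaction had 5 lower and 0 higher on the median-ratio scale, and 4 lower and 0 higher as deposited. The share of all genes at that unadjusted threshold was not counted, so these counts have no background here. The shares above hold for the adjusted threshold only. Tfb2m gave -0.69 ± 0.11 (adjusted p = 0.0070) and -0.55 on the deposited scale (adjusted p = 0.029), and was called without any 1 of the 12 libraries. Without replicate 3 of both ERRKO groups it gave -0.63 (adjusted p = 0.04999). Tfam gave -0.61 ± 0.14 (adjusted p = 0.032), but -0.49 on the deposited scale did not pass (adjusted p = 0.068). Its call was also lost without any 1 library other than ERRKO_CL replicate 1 and WT_PBS replicate 3 (-0.53 and an adjusted p of 0.0736 without ERRKO_CL replicate 2), and without replicate 3 of both ERRKO groups (-0.56, adjusted p = 0.126). Gabpa (-0.54 ± 0.16, adjusted p = 0.080), Polrmt (-0.54 ± 0.17, adjusted p = 0.099) and Polg (-0.39 ± 0.12, adjusted p = 0.104) did not pass. Ppargc1a, the gene of the coactivator PGC-1α, averaged 10.0 ± 2.97 in ERRKO_CL, 6.98 ± 3.63 in ERRKO_PBS, 8.06 ± 1.82 in WT_CL and 4.90 ± 0.503 in WT_PBS.

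Other genes that act on mitochondrial DNA and its RNA were set beside the 10 genes. Of 27 genes of transcript elongation, termination, processing and decay, 20 were lower and 0 higher in ERRKO_CL than in WT_CL (median -0.75, deposited -0.08). Under PBS 15 were lower and 0 higher in ERRKO_PBS than in WT_PBS (median -0.48, deposited 0.07). Over all tested genes 21.6% were lower and 19.8% higher under CL316,243, and 18.4% lower and 15.8% higher under PBS. On the deposited scale these counts were 12 lower and 9 higher, where 6.62% and 70.5% of all genes were, and 9 lower and 9 higher, where 6.22% and 66.3% were. With CL316,243 in WT 16 were higher and 0 lower, where 17.9% and 12.6% of all genes were (7 and 2 as deposited, where 7.2% and 38.1% were). Lrpprc, which stabilises mitochondrial messenger RNA, averaged 12.1 ± 0.971 in ERRKO_CL, 9.79 ± 1.10 in ERRKO_PBS, 47.2 ± 2.88 in WT_CL and 30.3 ± 3.49 in WT_PBS. It was lower by -1.92 ± 0.11 under CL316,243 (adjusted p = 6.8e-08; deposited -1.22) and by -1.58 ± 0.11 under PBS (adjusted p = 5.3e-07; deposited -1.01). Fastkd1, of a family of mitochondrial RNA-binding proteins, was lower by -2.42 ± 0.11 and -1.94 ± 0.11 in the same comparisons (deposited -1.75 and -1.41). Ptcd3, a pentatricopeptide repeat protein of the mitochondrial ribosome, averaged 16.3 ± 0.483 in ERRKO_CL, 12.5 ± 0.318 in ERRKO_PBS, 60.0 ± 1.64 in WT_CL and 27.9 ± 2.10 in WT_PBS, and its interaction was -0.73 ± 0.11 (adjusted p = 0.0034; deposited -0.60).

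Of 6 nucleoid-associated genes, 6 were lower in ERRKO_CL and 5 in ERRKO_PBS, and 0 were higher, where 21.6% and 18.4% of all genes were lower. As deposited 3 were lower and 1 higher in each, where 6.62% and 6.22% of all genes were lower and 70.5% and 66.3% higher. Atad3a, a membrane ATPase found with nucleoids, was lower by -1.97 ± 0.11 under CL316,243 (deposited -1.27) and -1.98 ± 0.11 under PBS (deposited -1.40). Lonp1, the matrix protease that degrades TFAM, rose with CL316,243 in both genotypes, by 0.56 ± 0.09 in ERRKO (adjusted p = 0.0036; deposited 0.37) and 0.71 ± 0.09 in WT (adjusted p = 1.9e-04; deposited 0.39).

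Of 11 genes of mitochondrial DNA replication and repair, 3 were lower and 1 higher in ERRKO_CL than in WT_CL (median -0.24, deposited 0.36). Under PBS 2 were lower and 0 higher (median -0.15, deposited 0.40). These shares are near the 21.6% and 18.4% of all genes that were lower. As deposited, 1 was lower and 6 were higher in each, where 6.62% and 6.22% of all genes were lower and 70.5% and 66.3% higher, so the counts are not a result about this list. The gene lower on both scales was Endog, a mitochondrial nuclease, which averaged 11.3 ± 1.84 in ERRKO_CL, 8.50 ± 0.263 in ERRKO_PBS, 52.8 ± 2.80 in WT_CL and 34.4 ± 7.12 in WT_PBS. It was lower by -2.19 ± 0.14 under CL316,243 (adjusted p = 1.4e-07; deposited -1.49) and by -1.94 ± 0.14 under PBS (adjusted p = 6.1e-07; deposited -1.37). Peo1, the replicative helicase now named Twnk, was lower by -0.78 ± 0.12 under CL316,243 (adjusted p = 3.4e-04; deposited -0.12) and by -0.46 ± 0.12 under PBS (adjusted p = 0.013; deposited 0.08). Top1mt, the mitochondrial topoisomerase, rose by 0.77 ± 0.12 with CL316,243 in ERRKO (adjusted p = 0.0032; deposited 0.59) and by 0.77 ± 0.12 in WT (adjusted p = 7.8e-04; deposited 0.45).

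Of the 10 listed genes of mitochondrial nucleotide supply, 9 passed the filter, of which 5 were lower and 1 higher in ERRKO_CL and 6 lower and 1 higher in ERRKO_PBS than in WT (3 and 5, and 2 and 4, as deposited). Over all genes 21.6% were lower and 19.8% higher under CL316,243, and 18.4% and 15.8% under PBS (6.62% and 70.5%, and 6.22% and 66.3%, as deposited). Suclg1, a succinyl-CoA ligase subunit, was lower by -2.69 ± 0.15 under CL316,243 (deposited -1.97) and -2.89 ± 0.15 under PBS (deposited -2.30). Slc25a33, a pyrimidine nucleotide carrier, averaged 8.62 ± 1.08 in ERRKO_CL, 5.74 ± 1.09 in ERRKO_PBS, 25.4 ± 1.07 in WT_CL and 9.63 ± 2.39 in WT_PBS. It rose by 1.38 ± 0.16 with CL316,243 in WT (adjusted p = 1.1e-04; deposited 1.06). For scale, 12 of 12 nuclear respiratory chain subunits were lower in ERRKO under each treatment on both scales, with medians of -2.86 under CL316,243 and -2.61 under PBS, larger in size than the difference of any of the 10 genes. Of 15 transcripts of the mitochondrial genome itself, 0 were found under the gene names tried, so they were not analysed here.

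**Figure D4:**
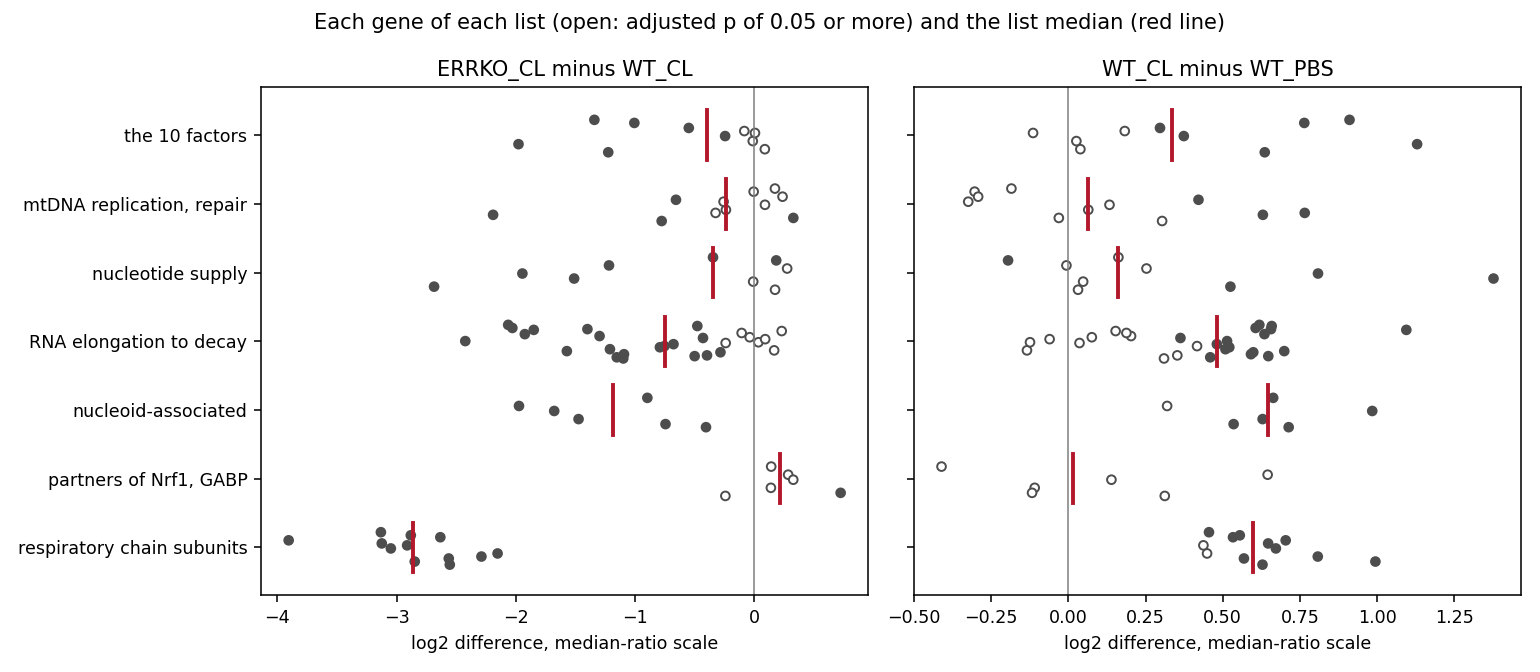
Log2 difference of every tested gene of the 10 genes and of the lists set beside them, for ERRKO_CL minus WT_CL and for WT_CL minus WT_PBS on the median-ratio scale; open points did not pass the test and red lines are list medians. Between genotypes the 10 genes have a median of -0.40 (deposited 0.29) and the respiratory chain subunits one of -2.86 (deposited -2.15).

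Likeness of pattern was measured as the root mean square difference of centred log2 levels over the 4 group means, among the 11167 genes whose mean RPKM reached 1. The nearest of the other 9 genes was Polrmt for Tfam (0.124) and Gabpa for Tfb2m (0.295), while Nrf1 was nearest to both Polg2 (0.0569) and Gabpb1 (0.0624). Nearest to Tfb2m among all genes were Gpd2 (0.0482), Acyp2 (0.0486) and Aifm1 (0.0565). Gpd2, the mitochondrial glycerol-3-phosphate dehydrogenase, averaged 50.8 in ERRKO_CL, 33.7 in ERRKO_PBS, 193 in WT_CL and 87.6 in WT_PBS. Nearest to Tfam were Rsph3a (0.0193), whose reads can be shared with its close copy Rsph3b, Them4 (0.0269) and Cds1 (0.0302). With 4 group means, many genes can share a pattern, and these values are descriptions.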

How the data were processed

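The authors deposited RPKM values for 24452 genes in 12 libraries, and a second table of 12380 genes as a linear signal. Per the submitters' processing notes, the tools were STAR 2.3.0, cutadapt, edgeR and bcl2fastq 2.16.0.10, and both mm9 and mm10 are named, without a role. The sources used here do not give the counter, annotation, strand use or RPKM library total. In the second table the deposited signal gave whole reads for 100.0% of values within 0.01, and depths are sums of those reads.

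Groups and replicates came from the labels. RPKM was divided by median-of-ratios factors, and log2(value + 0.5) was tested with limma 3.58.1 (trend, R 4.3.3) for genes averaging 0.5 RPKM or more, in 1 fit of 12 libraries, with Benjamini-Hochberg adjustment within each comparison at 0.05. Low genes' changes are understated on this scale. Alternatives were the deposited scale, quantile normalization, pseudocounts of 0.1 and 1, no filter, a filter at a mean of 2 RPKM, fits of only the groups compared, the second table, edgeR 4.0.16 quasi-likelihood on the recovered reads, a replicate block and libraries left out. The procedure was tested on simulated data. The members and lists were chosen with earlier results of these data known; ratios, overlapping neighbours and the 2 shorter motif forms were added after values or sequences were seen. Named from each list were genes with the smallest p, up to 4, and any a sentence turns on. Peo1 is the table's name for Twnk. Coordinates come from GENCODE M21 on GRCm38 and promoters from RefSeq on GRCm38.p6, not from the files. Of the second table, 9 cells outside the libraries' columns were left out.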

Additional observations from a re-analysis of the deposited data

Results flagged for a closer look

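For 2 of the 10 genes the test of the interaction found that the response to CL316,243 differed between ERRKO and WT brown fat. For Tfb2m the change in ERRKO less the change in WT was -0.69 (log2, ± 0.11 SE, limma adjusted p = 0.0070), with a rise of 0.44 in ERRKO and of 1.13 in WT. For Tfam it was -0.61 (± 0.14, adjusted p = 0.032), with a difference of 0.02 in ERRKO and a rise of 0.64 in WT. In WT all 3 WT_CL libraries lay above all 3 WT_PBS libraries for both genes. In ERRKO this held for Tfb2m, while the Tfam libraries overlapped. The Tfam value did not pass on the deposited scale (-0.49, adjusted p = 0.068), nor when any library other than ERRKO_CL replicate 1 or WT_PBS replicate 3 was left out. Over all 12 fits with 1 library left out, it ran from -0.68 to -0.53 with adjusted p from 0.017 to 0.074.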

How the results depend on the processing

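With no scaling of the deposited RPKM, called genes numbered 9451 (ERRKO_CL against WT_CL), 8877 (ERRKO_PBS against WT_PBS) and 2068 (ERRKO_CL against ERRKO_PBS), in place of 5078, 4189 and 1261. Of the 10 genes, 5 were then called higher and 4 lower in ERRKO under CL316,243, where 70.5% and 6.62% of all genes were. Under PBS 5 were higher and 1 lower, where 66.3% and 6.22% were. With CL316,243 in WT 4 were higher and 1 lower, where 7.2% and 38.1% were. With CL316,243 in ERRKO 0 were called in either direction, where 3.23% and 13.7% were. In the interaction 0 were higher and 1 lower, where 3.88% and 1.26% were. That scale turned the sign of Nrf1 (0.56), Polg (0.45), Ssbp1 (0.14) and Tfb1m (0.57) for ERRKO_CL against WT_CL, of Gabpb1 (0.42), Polrmt (0.075), Ssbp1 (0.17) and Tfb1m (0.52) under PBS, of Ssbp1 (-0.041), Tfam (-0.17) and Tfb1m (-0.062) for ERRKO_CL against ERRKO_PBS, of Nrf1 (-0.22), Polg2 (-0.23), Ssbp1 (-0.015) and Tfb1m (-0.11) for WT_CL against WT_PBS, and of Tfb1m (0.050) in the interaction. By construction this alternative keeps the shift of the typical gene.

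Differences near 0 also turned sign for Gabpb1 under quantile normalization (0.023 for ERRKO_CL against ERRKO_PBS, -0.058 for ERRKO_CL against WT_CL) and edgeR (-0.0046 for ERRKO_CL against WT_CL), and for Tfam in ERRKO under edgeR (-0.0053) and in the fit of only the groups compared (-0.0097). Without replicate 3 of both ERRKO groups, 217 genes were called for the interaction and 464 for ERRKO_CL against ERRKO_PBS, with 1 of the 10 genes lower in the interaction, and Nrf1 (0.037 for ERRKO_CL against ERRKO_PBS, 0.033 for ERRKO_CL against WT_CL, 0.014 in the interaction) and Tfb1m (0.058 under PBS) turned sign. The cause was not tested. Polg for ERRKO_CL against WT_CL did not pass under quantile normalization (adjusted p = 0.108) or with only the groups compared (0.055). For WT_CL against WT_PBS, 1 call among the 10 genes was lost under quantile normalization, and 1 with no filter. The same number was lost with only the groups compared, and without replicate 3 of both ERRKO groups.

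With single libraries left out, calls ranged from 529 (without ERRKO_PBS replicate 1) to 1641 (without WT_PBS replicate 3) for ERRKO_CL against ERRKO_PBS (1 to 2 of the 10 genes higher) and from 225 (without WT_CL replicate 3) to 822 (without WT_PBS replicate 3) for the interaction (1 to 2 lower). Signs varied for Gabpb1 (-0.073 to 0.0037), Polg (-0.060 to 0.066), Polg2 (-0.15 to 0.014) and Tfam (-0.049 to 0.10) in ERRKO_CL against ERRKO_PBS, Gabpb1 (-0.077 to 0.047) and Nrf1 (-0.15 to 0.068) in ERRKO_CL against WT_CL, Tfb1m (-0.15 to 0.17) in ERRKO_PBS against WT_PBS, Nrf1 (-0.054 to 0.16) and Polg2 (-0.17 to 0.14) in WT_CL against WT_PBS, and Gabpb1 (-0.0095 to 0.12), Polg2 (-0.24 to 0.078) and Tfb1m (-0.25 to 0.066) in the interaction.

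Deviations of same-numbered libraries correlated from -0.389 to 0.454, over 0.1 in 7 of 18 pairs, and 7 of 12 libraries were closest to one of their own number. Replicates 3 of WT_CL, ERRKO_PBS and ERRKO_CL all correlated with each other (0.454, 0.373 and 0.294). WT_PBS replicate 3 did not join them, at -0.207 with WT_CL, -0.219 with ERRKO_PBS and -0.070 with ERRKO_CL replicate 3. WT_PBS replicate 1, of another number, correlated with the same libraries at 0.375, 0.446 and 0.214 in that order. Since not every pair was over 0.1 and no label ties the numbers, they were not taken to pair the samples. With a replicate block, calls numbered 4920, 4070, 3522, 1079 and 371 for ERRKO_CL against WT_CL, ERRKO_PBS against WT_PBS, WT_CL against WT_PBS, ERRKO_CL against ERRKO_PBS and the interaction, and 1 of the 10 genes was lower in the interaction. Not called under the block were Tfam in the interaction (adjusted p = 0.0515), Polg for ERRKO_CL against WT_CL (0.0599) and Ssbp1 for WT_CL against WT_PBS (0.0668). Depth limits Polg2, Tfb1m, Nrf1 and Gabpb1 most, with as few as 52, 83, 106 and 124 reads in a library.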

Other observations

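Among 6 partners and coactivators of NRF1 and GABP, Yy1, a zinc-finger transcription factor, went the opposite way to the initiation genes. It averaged 29.4 ± 2.07 scaled RPKM in ERRKO_CL, 23.0 ± 0.851 in ERRKO_PBS, 17.6 ± 0.725 in WT_CL and 19.1 ± 0.262 in WT_PBS (SD, n = 3). It was higher in ERRKO by 0.73 ± 0.07 under CL316,243 (log2 ± SE, limma adjusted p = 9.5e-06; deposited 1.42) and by 0.26 ± 0.07 under PBS (adjusted p = 0.017; deposited 0.84). None of the other 5 was called between genotypes on the median-ratio scale, where 19.8% of all genes were higher under CL316,243 and 15.8% under PBS. As deposited 5 of the 6 were higher under CL316,243 and 4 under PBS, where 70.5% and 66.3% of all genes were. Mpv17, of the nucleotide supply list, an inner membrane protein, was higher in ERRKO_CL than in WT_CL by 0.19 ± 0.07 (adjusted p = 0.045; deposited 0.87) and lower in ERRKO_PBS than in WT_PBS by -0.28 ± 0.07 (adjusted p = 0.0078; deposited 0.29), with an interaction of 0.46 ± 0.10 (adjusted p = 0.024; deposited 0.58).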
